A study of Mus musculus with 30 samples.

Results

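The genes of collagens and other extracellular matrix components were followed in mice whose growth hormone receptor had been truncated, mutated or removed. The list held 40 genes, chosen by symbol from the platform's annotation, and 38 of them were measured by 80 of the 46643 probes on the array. Col6a3 and Fbn1 had no probe under their symbols in the annotation used here and were not analysed here. Ctgf was found under its newer symbol Ccn2. The study measured gene expression with Illumina bead arrays in subcutaneous fat and liver of male mice, 4 months old. All groups, WT included, had been fasted overnight before death. The mutants were knock-in mice with the receptor truncated at amino acid 569 (569), truncated at amino acid 391 (391), mutated in its Box1 region (Box1) or taken away altogether (KO), and WT mice carried the unaltered receptor. Each genotype had 3 arrays in each tissue, 30 in all. The labels do not say that the 3 arrays of a group came from separate mice, so the p-values measure the spread between arrays, which may be technical in part.

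The extracellular matrix is the protein scaffold around cells. Fibrillar collagens (types I, III and V) give it tensile strength, network-forming collagen IV, laminins and nidogen build the basement membrane under epithelium and endothelium and around each adipocyte, and fibronectin, elastin and the small leucine-rich proteoglycans link and space the fibres. Lysyl oxidases cross-link collagen and elastin, matrix metalloproteinases cleave matrix proteins, and tissue inhibitors of metalloproteinases (TIMPs) restrain that cleavage. Matricellular proteins such as thrombospondins, SPARC and connective tissue growth factor sit in the matrix and act on cells, and TGF-beta 1 is the best known inducer of matrix genes. In fat much of this scaffold is made by fibroblast-like stromal cells and adipocytes, in liver by stellate cells, sinusoidal endothelium and portal fibroblasts. Growth hormone binds its receptor, which works through the kinase JAK2 held at Box1 and through STAT5 docked on tyrosines of the receptor's tail, and growth hormone with its mediator IGF1 is known to stimulate collagen synthesis in connective tissue.

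The deposited value is a ratio of each probe to its own median over the 15 arrays of the tissue, so 1 stands for the middle array and no absolute level is left. Levels can therefore not be compared between genes or tissues, and a steady transcript cannot be told from an undetected one. The labelled tissue could not be checked from marker levels for the same reason. Differences are log2 differences of these ratios with their standard error (SE), fitted with limma over all 46643 probes. A gene is called changed at an adjusted p under 0.05. For a gene with several probes, the one with the largest spread over the tissue's arrays stands for it. Other probes are given for some genes only, and a call on 1 probe may not hold on the others. As background, the 391 truncation takes away the tail tyrosines on which STAT5 docks, the Box1 mutation the site of JAK2, and the KO the receptor. These 3 genotypes were therefore also compared as 1 class with the class of 569 and WT, each genotype weighted equally. Igf1, the growth hormone target made by the liver, had liver ratios between 0.43 and 1.15 in the 9 arrays of 391, Box1 and KO, against 14.24, 14.44 and 11.24 in 569 and 20.72, 18.39 and 18.92 in WT. In fat Igf1 lay between 0.63 and 1.04 in 391, Box1 and KO, against 4.46, 4.02 and 0.34 in 569 and 1.76, 3.08 and 2.02 in WT, so fat 569 replicate 3 was below every array of the other class. Ghr, the targeted gene, had liver ratios of 0.95, 1 and 1.42 in 569, 0.68, 0.78 and 1.4 in 391, 0.3, 0.26 and 0.23 in Box1, 1.51, 1.09 and 1.26 in KO and 1.09, 0.92 and 1.27 in WT on the more variable of its 2 probes. Neither probe was lower in KO than in WT in liver, and where they lie relative to the altered parts is not known here, so they do not check the KO label. The labels name 5 slides of 6 arrays. Only the pairs 569 with WT and KO with 391 were run on a common slide, and in all other comparisons slide and genotype cannot be told apart.

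In fat 1 array stood apart. For 569 replicate 3 the SD of log2 ratios over all probes was 0.74, against 0.21 to 0.34 for the other 14 fat arrays, and 9.79% of its probes lay below a ratio of 0.5. Adipocyte markers in it had a median log2 ratio of −2.32, endothelial markers −1.56, fibroblast markers −1.40, macrophage markers −1.94 and skeletal muscle markers 4.84. Skeletal muscle markers were also high in fat 569 replicate 1 (4.21), Box1 replicate 3 (4.29) and KO replicate 2 (3.58). Hepatocyte markers had fat array medians up to 2.87 in 391, Box1 and KO and up to 1.64 in 569 and WT. Among them Apoa1 had ratios of 21.9 in Box1 replicate 2 and 4.81 in WT replicate 2, where Alb had 1.32 and 0.95. Lymphocyte markers ran from −2.9 to 0.6 in 391, Box1 and KO and from −2.72 to 0.82 in 569 and WT. Their part in the matrix values was not tested. In liver, 391 replicates 2 and 3 had median log2 ratios of 3.15 and 2.43 for pancreatic acinar markers, and 391 replicate 2 also had 2.49 for skeletal muscle markers. Fat class and 569 differences are also given without 569 replicate 3, and liver results without those 391 arrays, where a call changes or a value moves by over 1.5 times. In bulk tissue, fewer cells of a type and less RNA per cell cannot be told apart.

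Promoter windows are shown for the type IV collagen chains, whose ratios stayed close in both tissues, and for the pair of metalloproteinase inhibitors called in liver. The type V chains, whose genes lie on different chromosomes, stayed about as close in their median difference, given below. Col4a1 and Col4a2 encode the chains of the common type IV collagen and are transcribed away from each other, on opposite strands, from neighbouring start sites. Their windows of 300 bases (250 before and 50 after the start, RefSeq, build GRCm38.p6) lie at chr8:11312777-11313076 on the minus strand and chr8:11312555-11312854 on the plus strand, and overlap by 78 bases. The capitals mark the bases that both windows hold.
Col4a1: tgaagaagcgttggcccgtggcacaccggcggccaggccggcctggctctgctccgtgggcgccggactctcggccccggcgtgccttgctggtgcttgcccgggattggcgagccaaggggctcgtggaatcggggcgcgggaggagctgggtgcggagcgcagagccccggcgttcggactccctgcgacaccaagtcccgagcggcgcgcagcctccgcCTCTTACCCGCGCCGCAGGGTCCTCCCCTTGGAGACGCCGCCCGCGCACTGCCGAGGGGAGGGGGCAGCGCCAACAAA
Col4a2: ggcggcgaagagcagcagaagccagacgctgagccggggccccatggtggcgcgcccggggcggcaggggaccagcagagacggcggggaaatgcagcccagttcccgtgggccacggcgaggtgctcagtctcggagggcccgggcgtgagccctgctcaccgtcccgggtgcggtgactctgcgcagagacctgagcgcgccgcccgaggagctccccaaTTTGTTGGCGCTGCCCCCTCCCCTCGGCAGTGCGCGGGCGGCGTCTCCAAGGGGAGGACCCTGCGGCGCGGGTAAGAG
Both windows are rich in G and C (74.0% and 73.7%). On both strands together, the Col4a1 window holds the CCAAT box (CCAAT) 1 time and the GC box (GGGCGG) 1 time, the Col4a2 window holds them 1 and 3 times, and neither holds the TATA box (TATAAA). Timp2 (chr11:118355362-118355661, minus strand) and Timp3 (chr10:86300162-86300461, plus strand), which encode metalloproteinase inhibitors, are the liver members with the smallest adjusted p below. Their capitals mark matches to the same 3 motifs on either strand.
Timp2: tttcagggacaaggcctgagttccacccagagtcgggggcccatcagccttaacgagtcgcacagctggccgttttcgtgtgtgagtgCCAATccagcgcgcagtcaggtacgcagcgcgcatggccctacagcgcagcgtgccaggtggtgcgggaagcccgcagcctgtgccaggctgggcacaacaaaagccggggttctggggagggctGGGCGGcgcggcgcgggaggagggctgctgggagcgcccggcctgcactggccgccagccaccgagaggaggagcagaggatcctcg
Timp3: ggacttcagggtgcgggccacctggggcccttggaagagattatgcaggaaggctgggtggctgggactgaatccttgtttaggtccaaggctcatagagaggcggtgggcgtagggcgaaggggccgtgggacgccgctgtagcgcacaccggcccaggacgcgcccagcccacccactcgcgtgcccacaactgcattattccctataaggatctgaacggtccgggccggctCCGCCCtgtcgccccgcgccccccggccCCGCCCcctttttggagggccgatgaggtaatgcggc
The Timp2 window holds 1 CCAAT box and 1 GC box and the Timp3 window 2 GC boxes. Of 32544 windows of this length in the RefSeq table, 37.4% hold CCAAT, 35.9% hold GGGCGG and 13.6% hold TATAAA. These matches describe the letters alone.

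In subcutaneous fat, the most uniform feature of the matrix genes was 1 array. In 569 replicate 3 all 38 members lay below 1, 27 of them (71.1%) below 0.5, and it was the lowest of the 15 arrays for 31 members. Lox was at 0.08 there, Thbs2 at 0.1, Bgn and Mmp14 at 0.21, Col4a2 at 0.22 and Col4a1 at 0.25. Their median ratio was 0.365, against 1.37 and 1.24 in the other 569 arrays. The low markers of adipocytes, fibroblasts and endothelium in this array are given above, and their part in the low matrix values was not tested. In 391 replicate 2, 37 members lay below 1 and none above, with a median ratio of 0.565. Fibroblast markers had a median log2 ratio of −0.56 there and adipocyte markers −0.27. The map of fat arrays shows both columns.

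**Figure D1:**
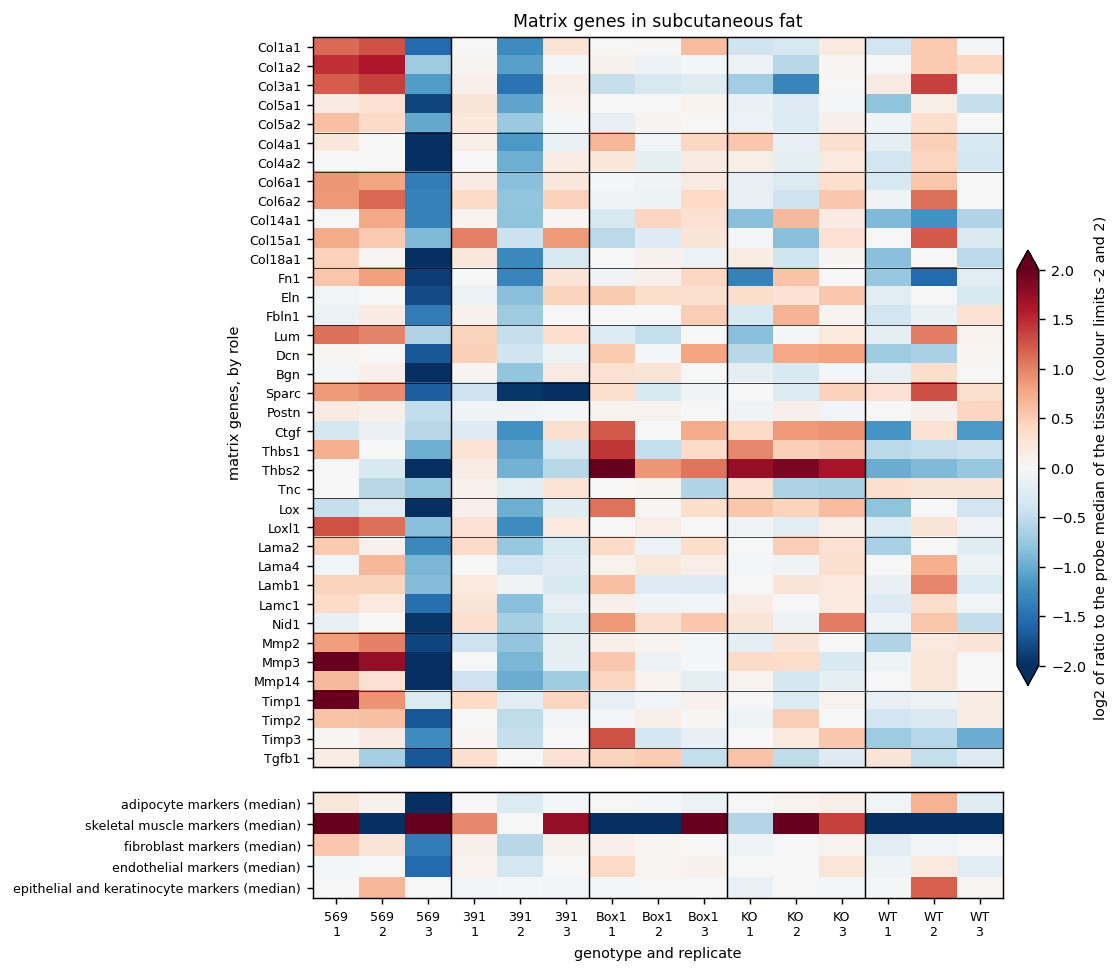
The 38 matrix genes (rows, by role) and the medians of 5 marker lists in the 15 fat arrays (columns, by genotype and replicate). Colour is the log2 ratio to the probe's median in fat, limited to −2 and 2. In 569 replicate 3 all 38 genes are below 0, with a median ratio of 0.365, and Thbs2 is above 1 in all 6 Box1 and KO arrays on the ratio scale.

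No matrix member was called in fat by limma in any comparison. The counts were 0 of 38 for 569 against WT (background 0% of 19406 genes), 391 against WT (0.0206%), Box1 against WT (0.00515%), KO against WT (0%), KO against 391 (0.0309%), the 391, Box1 and KO class against the 569 and WT class (0.0412%) and for any difference among genotypes (0.0258%). At an unadjusted p under 0.05 they were 2 (background 10.8%), 1 (4.81%), 3 (5.15%), 5 (6.82%), 3 (7.31%), 8 (11.2%) and 3 (9.27%) of 38. A fit of both classes with slide as a random block called 9 members (background 12.6%) at a negative consensus correlation of −0.124, 7 of them positive and 2 negative. The smallest adjusted p of that fit were those of Thbs2 (0.0063), Col3a1 (0.015), Col1a2 (0.018) and Timp3 (0.02), of which Col3a1 and Col1a2 were the negative ones. Each slide held fat arrays of 1 class only. A negative correlation narrows the SE of a difference between slides, so the adjusted p of that fit are likely too small. The median member difference in log2 was −0.11 for 569, −0.20 for 391, 0.15 for Box1 and 0.09 for KO, each against WT, while the medians over all genes were −0.0277, 0.00462, 0.0318 and 0.0152. Fat was the more variable tissue for these genes: the SD over 15 arrays had a median of 0.66 in log2 units, against 0.22 in liver, and was larger in fat for 37 of 38 members. These fat SDs include 569 replicate 3, the lowest array for 31 members, and no SD without it is given. The wider spread was not particular to these genes. Over all probes the SD of an array was 0.74 in 569 replicate 3, 0.21 to 0.34 in the other fat arrays and 0.17 to 0.24 in liver.

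Counted without a test, 6 members lay above WT in all KO arrays (background 9.48%) and 1 below (4.63%), 6 above (7.21%) and 2 below (3.38%) in Box1, 1 above (4.64%) and 3 below (4.99%) in 391, and none above (4.59%) and 1 below (6.56%) in 569. For KO against 391 it was 6 above (10%) and none below (5.06%).

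The matricellular genes held the largest differences in fat. Thbs2, which encodes thrombospondin 2, an inhibitor of angiogenesis that also affects collagen fibril assembly, had ratios of 1, 0.81 and 0.1 in 569, 1.11, 0.52 and 0.68 in 391, 4.9, 1.84 and 2.11 in Box1, 3.33, 3.67 and 3.12 in KO and 0.5, 0.54 and 0.59 in WT. All KO arrays and all Box1 arrays lay above all WT arrays, and KO lay above 391 without overlap. The log2 difference was 2.63 ± 0.69 (SE, adjusted p = 0.45) for KO against WT, 2.30 ± 0.69 (SE, adjusted p = 1) for Box1 against WT and 2.20 ± 0.69 (SE, adjusted p = 0.56) for KO against 391, the pair run on 1 slide. Under 3 alternatives, quantile normalization, array weights and a fit of the 2 genotypes alone, KO against WT was called for Thbs2 (adjusted p = 0.043, 0.048 and 0.002), and the last also called KO against 391 (adjusted p = 0.033). For the class comparison it was 1.95 ± 0.44 (SE, adjusted p = 0.23), and without 569 replicate 3 it was 1.42 ± 0.23 (SE), adjusted p = 0.028.

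Ctgf, connective tissue growth factor, a target of TGF-beta and of mechanical load, had ratios of 0.78, 0.91 and 0.68 in 569, 0.84, 0.43 and 1.25 in 391, 2.35, 1 and 1.67 in Box1, 1.3, 1.81 and 1.87 in KO and 0.44, 1.24 and 0.45 in WT. All KO arrays exceeded all WT arrays, the lowest being 1.3 and the highest WT array 1.24, and all exceeded the 391 arrays. The differences were 1.39 ± 0.45 (SE, adjusted p = 0.63) for KO against WT and 1.09 ± 0.45 (SE, adjusted p = 0.7) for KO against 391. Thbs1, encoding thrombospondin 1, which can activate latent TGF-beta, had ratios of 1.64, 1 and 0.51 in 569, 1.21, 0.48 and 0.8 in 391, 2.68, 0.72 and 1.31 in Box1, 1.94, 1.39 and 1.46 in KO and 0.69, 0.72 and 0.74 in WT. The KO arrays lay above those of WT and 391, and Box1 overlapped with WT. Its second probe gave 0.57 ± 0.29 (SE) for the class comparison and the first 0.53 ± 0.31 (SE), neither called. Without 569 replicate 3 the first had 0.31 ± 0.29 (SE).

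Sparc, which encodes a collagen-binding glycoprotein abundant in fat stroma, had ratios of 1.81, 1.93 and 0.32 in 569, 0.75, 0.26 and 0.2 in 391, 1.25, 0.81 and 0.95 in Box1, 1, 0.83 and 1.37 in KO and 1.24, 2.44 and 1.25 in WT. All 391 arrays lay below all WT arrays and below all KO arrays. The differences were −2.20 ± 0.64 (SE, adjusted p = 0.92) for 391 against WT and 1.62 ± 0.64 (SE, adjusted p = 0.68) for KO against 391. Tnc, tenascin C, a glycoprotein of remodelling tissue, had ratios of 0.99, 0.68 and 0.58 in 569, 1.06, 0.86 and 1.21 in 391, 1, 1.04 and 0.66 in Box1, 1.23, 0.65 and 0.64 in KO and 1.26, 1.19 and 1.2 in WT. The 569 and Box1 arrays lay below WT, with 0.99 the highest of 569 and 1.19 the lowest of WT, and the 569 difference was −0.73 ± 0.27 (SE, adjusted p = 0.55). Postn, periostin, ran between 0.71 and 1.34 over all 15 arrays, the narrowest of the matricellular genes.

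Among the fibrillar collagens, Col1a1, the main chain of type I collagen, had ratios of 2.2, 2.43 and 0.34 in 569, 0.99, 0.42 and 1.21 in 391, 1, 1.02 and 1.54 in Box1, 0.76, 0.8 and 1.14 in KO and 0.77, 1.44 and 0.97 in WT. The highest and the lowest array were both of genotype 569. Col1a2, the partner chain, had ratios of 2.76, 3.06 and 0.61 in 569, 1.04, 0.47 and 0.98 in 391, 1.06, 0.92 and 0.98 in Box1, 0.92, 0.68 and 1.03 in KO and 1, 1.44 and 1.33 in WT, with the same arrays 569 replicates 1 and 2 on top. Col3a1, type III collagen of reticular fibres, had ratios of 2.32, 2.59 and 0.46 in 569, 1.07, 0.36 and 1.09 in 391, 0.73, 0.8 and 0.85 in Box1, 0.62, 0.4 and 1 in KO and 1.12, 2.57 and 1.01 in WT. Every KO and Box1 array was below every WT array for Col3a1, by little in KO (highest KO array 1, lowest WT array 1.01), and the class difference was −0.98 ± 0.42 (SE, adjusted p = 0.51). Its second probe had −0.55 ± 0.29 (SE).

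Col4a1 in fat had ratios of 1.17, 1 and 0.25 in 569, 1.08, 0.45 and 0.91 in 391, 1.58, 0.96 and 1.33 in Box1, 1.45, 0.89 and 1.25 in KO and 0.87, 1.39 and 0.81 in WT. Apart from the low values of 569 replicate 3 and 391 replicate 2, the genotypes overlapped, and the class difference was 0.36 ± 0.33 (SE, adjusted p = 0.78). Without 569 replicate 3 it was 0.01 ± 0.22 (SE). Over the 15 fat arrays Col4a1 and Col4a2, the pair of head-to-head genes shown above, differed by a median of 0.18 and at most 0.43 log2 units, while each had an SD of 0.69 and 0.64. The type I chains Col1a1 and Col1a2 differed by a median of 0.28 and at most 0.84, and the type VI chains Col6a1 and Col6a2 by 0.15 and at most 0.54. The type V chains Col5a1 and Col5a2, on chromosomes 2 and 1, differed by 0.14 and at most 0.81. The chains of a pair were read on the same arrays, and these values are a description. Col14a1, a fibril-associated collagen, had ratios of 1, 1.7 and 0.39 in 569, 1.05, 0.57 and 1.03 in 391, 0.8, 1.35 and 1.23 in Box1, 0.56, 1.57 and 1.12 in KO and 0.54, 0.43 and 0.66 in WT. The Box1 arrays lay above WT, and the difference was 1.04 ± 0.50 (SE, adjusted p = 1).

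The laminin and nidogen genes overlapped between genotypes. Nid1, which bridges laminin and collagen IV, had ratios of 0.9, 1 and 0.26 in 569, 1.26, 0.63 and 0.8 in 391, 1.82, 1.25 and 1.46 in Box1, 1.19, 0.93 and 2.03 in KO and 0.95, 1.47 and 0.71 in WT. Its class difference was 0.60 ± 0.31 (SE, adjusted p = 0.6), with WT replicate 2 above most mutant arrays, and without 569 replicate 3 it was 0.29 ± 0.23 (SE). Lama2, Lama4, Lamb1 and Lamc1 ran between 0.35 and 1.96. Fn1, fibronectin, had ratios of 1.47, 1.76 and 0.27 in 569, 1, 0.4 and 1.2 in 391, 0.95, 1.07 and 1.33 in Box1, 0.39, 1.48 and 1.01 in KO and 0.59, 0.34 and 0.86 in WT. Only Box1 lay above WT without overlap, at a difference of 0.99 ± 0.70 (SE, adjusted p = 1). Eln, elastin, had ratios of 0.96, 0.99 and 0.29 in 569, 0.92, 0.56 and 1.36 in 391, 1.44, 1.27 and 1.25 in Box1, 1.27, 1.22 and 1.46 in KO and 0.86, 1 and 0.81 in WT. Box1 and KO lay above WT, by 0.57 ± 0.41 (SE, adjusted p = 1) and 0.57 ± 0.41 (SE, adjusted p = 0.9).

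Lox, the lysyl oxidase that starts collagen cross-linking, had ratios of 0.73, 0.86 and 0.08 in 569, 1.07, 0.51 and 0.85 in 391, 2.13, 1.02 and 1.27 in Box1, 1.46, 1.36 and 1.53 in KO and 0.57, 1 and 0.77 in WT. Both Box1 and KO lay above WT, and KO above 391. The class difference was 1.13 ± 0.45 (SE, adjusted p = 0.47), and without 569 replicate 3, whose ratio was 0.08, it was 0.58 ± 0.21 (SE) with an adjusted p of 0.39. Loxl1, a lysyl oxidase needed for elastic fibres, had its highest ratios in 569 replicates 1 and 2, 2.43 and 2.15. Dcn, decorin, which binds collagen fibrils and TGF-beta, had ratios of 1.02, 1 and 0.31 in 569, 1.39, 0.76 and 0.93 in 391, 1.44, 0.97 and 1.72 in Box1, 0.68, 1.7 and 1.75 in KO and 0.61, 0.64 and 1.02 in WT. The groups overlapped, and the class difference was 0.75 ± 0.31 (SE, adjusted p = 0.5), or 0.46 ± 0.25 (SE) without 569 replicate 3.

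Of the proteases and their inhibitors, Mmp3, stromelysin 1, had ratios of 4.72, 3.4 and 0.22 in 569, 1, 0.53 and 0.88 in 391, 1.46, 0.92 and 0.97 in Box1, 1.3, 1.29 and 0.81 in KO and 0.94, 1.18 and 1.01 in WT. The 569 arrays held both the highest values and the lowest. Timp1, an inhibitor of many metalloproteinases, had ratios of 6.46, 1.87 and 0.83 in 569, 1.32, 0.86 and 1.34 in 391, 0.89, 0.96 and 1.06 in Box1, 1, 0.83 and 1.05 in KO and 0.89, 0.93 and 1.11 in WT. One array, 569 replicate 1, stood above all others, and 569 overlapped with WT at a difference of 1.15 ± 0.52 (SE, adjusted p = 0.56). Timp3, the inhibitor that binds to the matrix itself, had ratios of 1.03, 1.12 and 0.42 in 569, 1.03, 0.73 and 1 in 391, 2.42, 0.79 and 0.9 in Box1, 1.01, 1.14 and 1.45 in KO and 0.61, 0.67 and 0.5 in WT. The 391, Box1 and KO arrays were all above the WT arrays, while 569 held both values above all WT arrays and the lowest of all arrays (0.42). The class difference was 0.68 ± 0.27 (SE, adjusted p = 0.47), and without 569 replicate 3 it was 0.45 ± 0.23 (SE). Mmp14, a membrane-bound collagenase, was lower in 391 than in WT without overlap, at −0.79 ± 0.55 (SE, adjusted p = 1). For Tgfb1, the TGF-beta 1 ligand, the ratios were 1.11, 0.63 and 0.31 in 569, 1.25, 1 and 1.24 in 391, 1.36, 1.42 and 0.72 in Box1, 1.48, 0.7 and 0.84 in KO and 1.19, 0.72 and 0.84 in WT, and the genotypes overlapped.

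**Figure D2:**
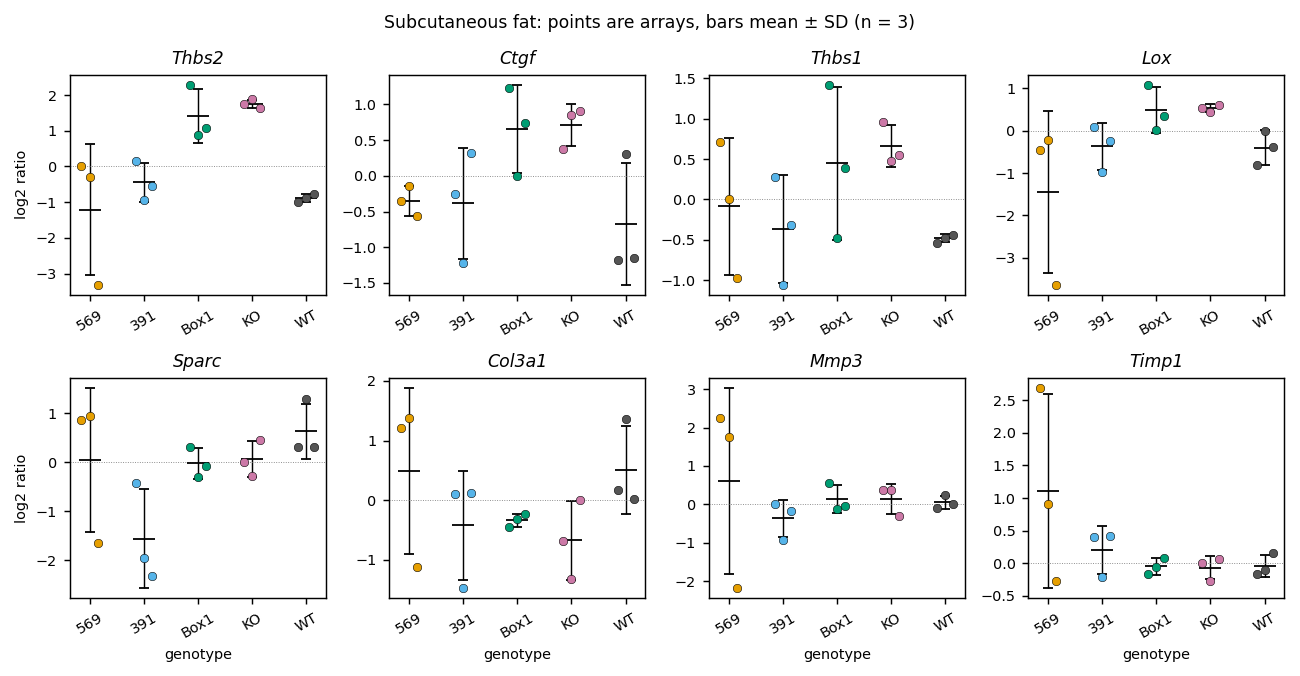
Log2 ratio to the probe's median in fat for 8 matrix genes by genotype; points are the 3 arrays of a group, and the bar and whiskers are their mean ± SD. Thbs2 is highest in the KO and Box1 arrays, and one 569 array is the lowest point or near it for Thbs2, Lox, Col3a1 and Mmp3.

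Without 569 replicate 3, the sign of the 569 difference from WT turned for 19 of 38 members. Then 33 of 38 were above WT with a median difference of 0.53, against 14 of 38 and −0.11 with it, and the median over all genes was 0.0161. None was called (background 0.00515%, 1 gene). Mmp3 had a difference of 1.95 ± 0.30 (SE, adjusted p = 0.081), Timp1 1.84 ± 0.38 (SE, adjusted p = 0.24), Col1a2 1.23 ± 0.30 (SE, adjusted p = 0.36) and Col1a1 1.17 ± 0.40 (SE, adjusted p = 0.6), with 2 arrays of 569 and 3 of WT on 1 slide. The 391, Box1 and KO class against the 569 and WT class then called 3 members (background 0.381%). Thbs2 rose by 1.42 ± 0.23 (SE, adjusted p = 0.028), Col1a2 fell by 1.12 ± 0.18 (SE, adjusted p = 0.03), and Mmp3 fell by 1.06 ± 0.18 (SE, adjusted p = 0.041). With all arrays their differences were 1.95, −0.75 and −0.36. The F test over genotypes then called Thbs2 (adjusted p = 0.021) and Mmp3 (adjusted p = 0.04), against a background of 0.258%. Macrophage markers in 569 replicates 1 and 2 had median log2 ratios of 0.74 and 0.49 and fibroblast markers 0.54 and 0.25, against −0.38 to 0.18 and −0.22 to 0 in WT, and their part in the 569 values was not tested.

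In liver the matrix genes moved less and with tighter arrays, and 10 of 38 members rose in the 391, Box1 and KO class against the 569 and WT class. They were Ctgf, Dcn, Timp3, Timp2, Fn1, Col5a1, Col6a1, Col18a1, Nid1 and Col14a1, with log2 differences of 1.16 at the top to 0.29, and none fell. This is 26.3% of the members, against a background of 15.3% of all genes in either direction, 13.9% up and 1.36% down. The median member difference was 0.10, that of all genes 0.0446, and 28 of 38 members were positive. Col1a1, Col1a2 and Col3a1, the major fibrillar collagens, were not among them, with 0.03 ± 0.07 (SE, adjusted p = 0.9), −0.10 ± 0.07 (SE, adjusted p = 0.43) and −0.08 ± 0.07 (SE, adjusted p = 0.59). The number called was 3 under quantile normalization and when 569 replicate 2, 569 replicate 3 or KO replicate 3 was left out. It was 4 without WT replicate 2 or 3, 5 without Box1 replicate 2, and 6 without 391 replicate 1 or KO replicate 2. Ctgf, Timp2 and Timp3 were called under all 23 alternatives. In 569 replicates 2 and 3 the matrix genes had median log2 ratios of −0.23 and −0.22. Low values in these arrays are part of the class differences of the called members, which are not rises over WT alone.

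**Figure D3:**
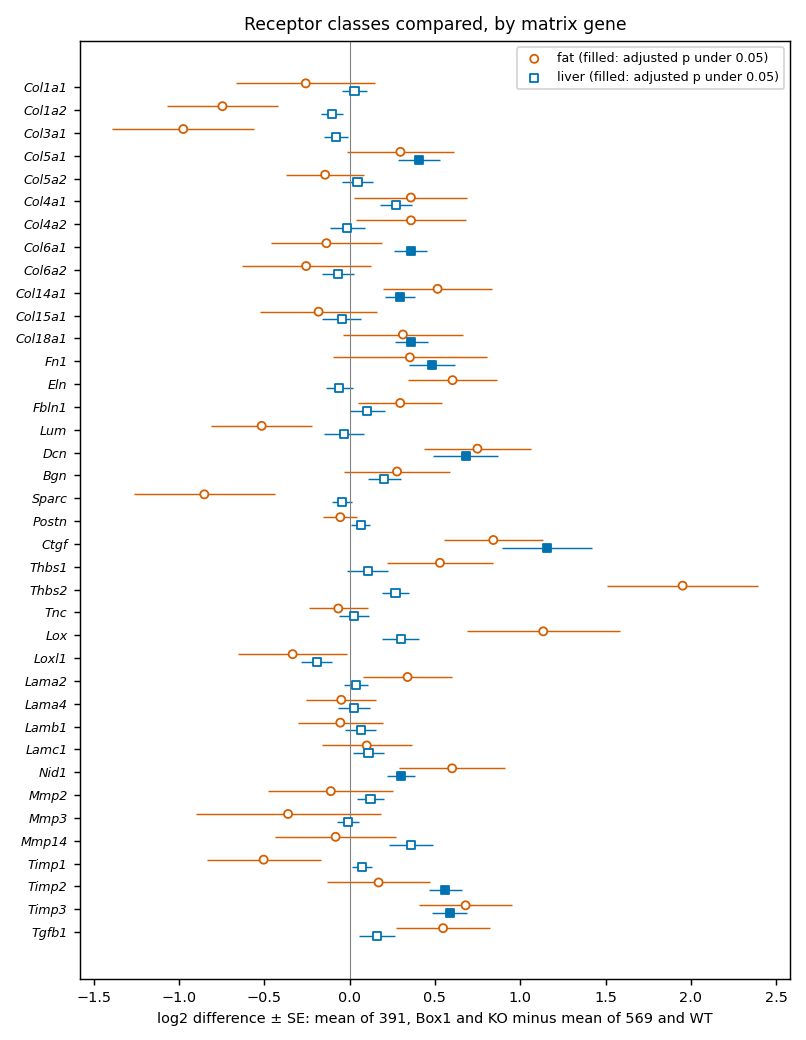
Fitted log2 difference ± SE of the mean of 391, Box1 and KO minus the mean of 569 and WT for the 38 measured matrix genes, in fat (circles) and liver (squares); filled symbols have an adjusted p under 0.05. All 10 filled symbols are liver genes at positive differences from 0.29 to 1.16, and none of the fat symbols is filled.

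The metalloproteinase inhibitors had the smallest adjusted p. Timp2, which both inhibits MMPs and takes part in activating MMP2, had liver ratios of 0.86, 0.59 and 0.62 in 569, 1.07, 1.43 and 1.33 in 391, 0.89, 1.11 and 0.89 in Box1, 1.31, 1.16 and 1.28 in KO and 0.92, 0.77 and 1 in WT. All 391 and all KO arrays lay above all WT arrays, whereas Box1 overlapped with WT, and 569 held the lowest values. The class difference was 0.56 ± 0.10 (SE, adjusted p = 0.0019). Timp3 had liver ratios of 0.82, 0.59 and 0.72 in 569, 1.72, 1.57 and 1.12 in 391, 0.97, 1 and 1.06 in Box1, 0.97, 1.28 and 1.11 in KO and 1.02, 0.8 and 0.81 in WT. The 391 arrays lay above WT, and 569 replicates 2 and 3 lay below all other arrays. Timp3 rose by 0.73 ± 0.16 (SE, adjusted p = 0.03) in 391 against WT, the only member called in a comparison of 1 genotype with WT (1 of 38, background 3.18%). That call was lost when 391 replicate 1 (adjusted p = 0.12), 391 replicate 2 (0.079), WT replicate 2 (0.13) or WT replicate 3 (0.12) was left out, in the fit of 391 and WT alone (0.16) and with the mean over its probes (0.13). The class difference was 0.59 ± 0.10 (SE, adjusted p = 0.0021). The second Timp3 probe had a class difference of 0.05 ± 0.08 (SE) and was not called. Timp1 was not called: its ratios were 0.91, 1.01 and 1.07 in 569, 0.92, 1.05 and 1 in 391, 0.9, 1 and 1.05 in Box1, 1.11, 0.96 and 1.14 in KO and 0.94, 0.91 and 0.95 in WT, all between 0.9 and 1.14. KO lay above WT by little (lowest KO array 0.96, highest WT array 0.95), with a class difference of 0.07 ± 0.06 (SE, adjusted p = 0.59).

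Among the matricellular genes, Ctgf had liver ratios of 1.4, 0.56 and 0.41 in 569, 2.74, 1.51 and 0.81 in 391, 2.01, 1.44 and 1.88 in Box1, 0.71, 1.17 and 1 in KO and 0.56, 0.55 and 0.5 in WT. All 391, Box1 and KO arrays lay above the 3 WT arrays, and 569 ranged from 0.41 to 1.4. The class difference was 1.16 ± 0.26 (SE, adjusted p = 0.011), a 2.23-fold rise, and KO against WT alone was 0.81 ± 0.41 (SE, adjusted p = 0.44). Thbs2 had liver ratios of 0.9, 0.82 and 0.7 in 569, 1.28, 1.42 and 1.15 in 391, 1.04, 1.12 and 0.87 in Box1, 1.01, 0.85 and 0.96 in KO and 1.08, 1 and 0.85 in WT. The 391 arrays lay above WT and above KO, and the F test called the gene (adjusted p = 0.038). KO against WT was −0.05 ± 0.13 (SE, adjusted p = 0.94) in liver, beside 2.63 ± 0.69 (SE) in fat. Sparc had liver ratios of 1.04, 0.93 and 1 in 569, 1.12, 1.1 and 0.96 in 391, 0.98, 1.17 and 1.08 in Box1, 0.8, 0.85 and 0.74 in KO and 1.04, 1 and 0.98 in WT. The 3 KO arrays lay below all other 12 liver arrays. The F test called Sparc (adjusted p = 0.035), while the single differences were −0.34 ± 0.09 (SE, adjusted p = 0.072) for KO against WT and −0.41 ± 0.09 (SE, adjusted p = 0.1) for KO against 391 on 1 slide.

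The F test over the 5 genotypes called 6 members in liver, which is 15.8% against a background of 9.07%. Besides Timp2 (adjusted p = 0.0082), Timp3 (0.0092), Sparc and Thbs2, they were Col4a1 (0.018) and Bgn (0.041). Of 22 alternatives, Timp2 and Timp3 were called under 22, Col4a1 under 21, Sparc under 13, Thbs2 under 11 and Bgn under 9. Without both 391 arrays that held pancreatic transcripts, the F test called 9 members (background 14.3%). Thbs2 (adjusted p = 0.14) and Bgn (0.055) were then not called, and Col18a1 (0.019), Ctgf (0.0081), Dcn (0.0038), Fn1 (0.023) and Nid1 (0.043) were. Col4a1 had liver ratios of 0.89, 0.73 and 0.71 in 569, 1.41, 1.28 and 1.04 in 391, 1.17, 1.36 and 1.16 in Box1, 0.86, 0.88 and 0.69 in KO and 1.22, 0.85 and 1 in WT. All KO arrays lay below all 391 arrays, at −0.62 ± 0.15 (SE, adjusted p = 0.15), and 569 was also low. Col4a2 had liver ratios of 1.03, 0.83 and 0.85 in 569, 1.26, 1.22 and 0.98 in 391, 1.05, 1.39 and 1 in Box1, 0.9, 0.86 and 0.72 in KO and 1.4, 0.95 and 1.26 in WT. It lay lower in KO than in WT and 391 without overlap, at −0.53 ± 0.16 (SE, adjusted p = 0.12) against WT. In liver this pair differed by a median of 0.16 and at most 0.33 log2 units over 15 arrays, with SDs of 0.34 and 0.29. The type I chains differed there by a median of 0.16 and at most 0.34, with SDs of 0.14 and 0.13. The type V chains differed by 0.17 and at most 0.57, and the type VI chains by 0.37 and at most 0.88.

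Bgn, biglycan, a proteoglycan close to decorin, had liver ratios of 0.85, 0.62 and 0.6 in 569, 1.1, 1 and 1.23 in 391, 0.76, 1.09 and 0.89 in Box1, 0.87, 1.03 and 1.01 in KO and 1.21, 1.07 and 0.98 in WT. All 569 arrays lay below all WT arrays, on the same slide, at −0.67 ± 0.15 (SE, adjusted p = 0.24). Dcn had liver ratios of 0.85, 0.59 and 0.59 in 569, 2.31, 1 and 0.83 in 391, 1.26, 1.16 and 1.34 in Box1, 0.95, 1.73 and 1.3 in KO and 1.05, 0.84 and 0.91 in WT. Box1 lay above WT, 391 and KO overlapped with it, and 569 was low. Dcn rose in the class comparison by 0.68 ± 0.19 (SE, adjusted p = 0.034). All 5 Dcn probes had positive class differences, and 3 of them were called, the other called probes at 0.42 ± 0.09 (SE, adjusted p = 0.006) and 0.66 ± 0.13 (SE, adjusted p = 0.0044). Lum, lumican, ran between 0.77 and 1.35 and had −0.03 ± 0.12 (SE, adjusted p = 0.92).

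**Figure D4:**
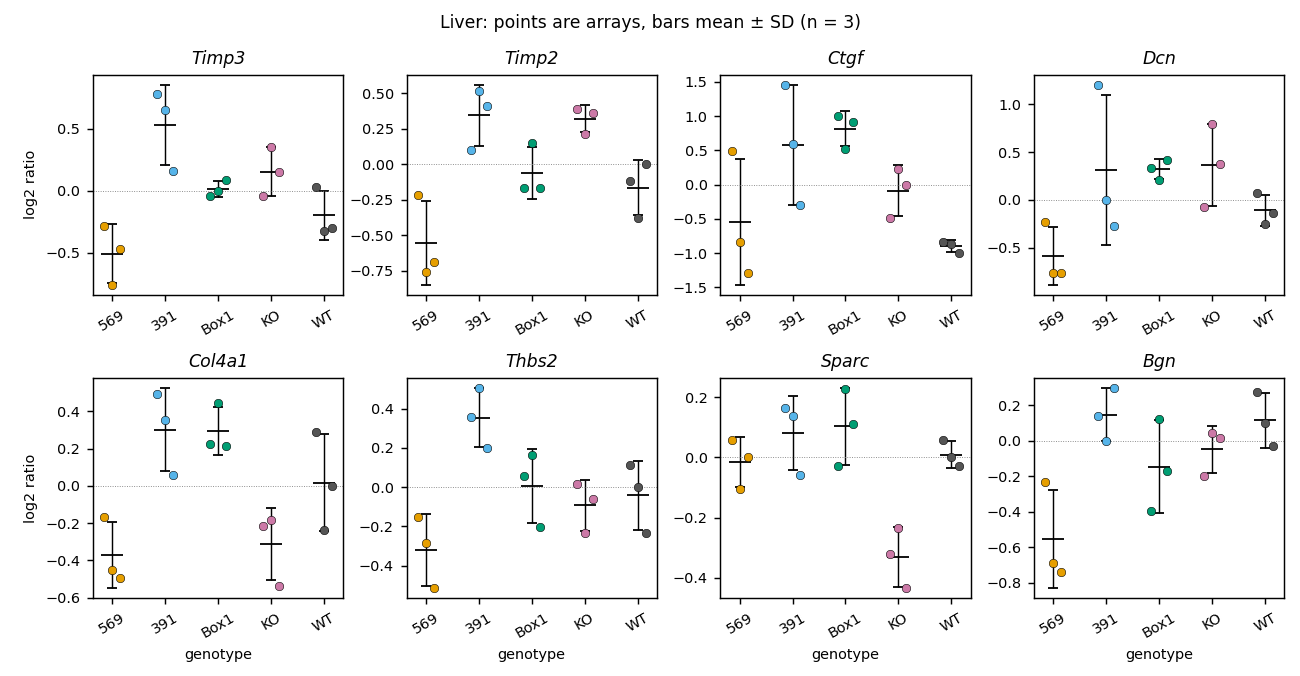
Log2 ratio to the probe's median in liver for 8 matrix genes by genotype; points are the 3 arrays of a group, and the bar and whiskers are their mean ± SD. Ctgf is lowest in a pair of 569 arrays and in the WT arrays, Timp2 and Timp3 are lowest in 569, and Sparc is lowest in the 3 KO arrays (0.8, 0.85 and 0.74 on the ratio scale).

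The other members called in the class comparison had smaller differences. Fn1, which hepatocytes also secrete into plasma, had liver ratios of 0.92, 0.86 and 0.84 in 569, 1.61, 1.8 and 0.92 in 391, 1.17, 1.17 and 1.63 in Box1, 1, 0.98 and 1.13 in KO and 0.84, 1.12 and 0.76 in WT. Box1 lay above WT, while 391 and KO overlapped with WT, and the class difference was 0.48 ± 0.13 (SE, adjusted p = 0.033). Its 3 other probes were also positive, from 0.02 to 0.25, and not called. Col5a1, which regulates fibril diameter, had liver ratios of 1.02, 0.7 and 0.78 in 569, 1.42, 0.92 and 1.22 in 391, 1.13, 1.2 and 1 in Box1, 0.83, 1.25 and 1.26 in KO and 0.99, 0.89 and 0.75 in WT. Box1 lay above WT and the rest overlapped, at a class difference of 0.41 ± 0.12 (SE, adjusted p = 0.047). Col6a1, a chain of the microfibrillar collagen VI, had liver ratios of 1.12, 0.71 and 0.7 in 569, 1.31, 1.29 and 1.37 in 391, 1, 1.26 and 1.1 in Box1, 0.82, 1 and 0.98 in KO and 0.91, 0.85 and 0.99 in WT. Both 391 and Box1 lay above WT and KO lay below 391. The class difference was 0.36 ± 0.10 (SE, adjusted p = 0.03), but the other 2 Col6a1 probes had 0.03 and −0.04.

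Col18a1, the basement membrane collagen that yields endostatin, had liver ratios of 0.82, 0.76 and 0.83 in 569, 1, 0.73 and 1.3 in 391, 1.11, 1.02 and 1.03 in Box1, 1.15, 1 and 1.1 in KO and 0.9, 0.84 and 0.71 in WT. Box1 and KO lay above WT, and the class difference was 0.36 ± 0.10 (SE, adjusted p = 0.03). A second probe had −0.10 ± 0.08 (SE). Nid1 had liver ratios of 0.83, 0.7 and 0.76 in 569, 1.29, 1.03 and 1 in 391, 1.03, 1.14 and 1.04 in Box1, 0.84, 1.01 and 0.98 in KO and 1.1, 0.93 and 0.77 in WT. The mutant groups overlapped with WT, and 569 held the lowest arrays, at a class difference of 0.30 ± 0.08 (SE, adjusted p = 0.032). Col14a1 had liver ratios of 0.94, 0.75 and 0.89 in 569, 1.07, 0.96 and 1.19 in 391, 1, 1.05 and 1.28 in Box1, 0.95, 1.32 and 1.14 in KO and 1.05, 0.9 and 0.88 in WT. All 3 mutant groups of the class overlapped with WT, and the class difference was 0.29 ± 0.09 (SE, adjusted p = 0.046). The calls of these 7 genes, Dcn included, were lost under 9 to 13 of 23 alternatives.

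Other members were not called in liver. Col1a1 had ratios of 0.99, 0.99 and 1 in 569, 1.07, 1.05 and 1.15 in 391, 0.98, 0.92 and 0.9 in Box1, 1.16, 0.84 and 1.07 in KO and 1.12, 0.86 and 1 in WT, and Col3a1 had 1.11, 0.94 and 0.96 in 569, 0.98, 0.93 and 1.04 in 391, 1.09, 0.98 and 1.17 in Box1, 0.84, 0.77 and 1.01 in KO and 1.15, 1.03 and 1 in WT. Neither separated a mutant from WT. For Mmp2, gelatinase A, the ratios were 1, 0.84 and 0.82 in 569, 1.09, 1.36 and 1.33 in 391, 1.04, 1.27 and 0.99 in Box1, 0.96, 0.84 and 0.98 in KO and 1.17, 1.2 and 1 in WT, with KO below both WT and 391, and KO against 391 at −0.44 ± 0.12 (SE, adjusted p = 0.24), or −0.24 ± 0.17 (SE) without the 391 arrays that held pancreatic transcripts. Lox was higher in 391 than in WT without overlap, at 0.53 ± 0.17 (SE, adjusted p = 0.15). Tgfb1 had a class difference of 0.16 ± 0.10 (SE, adjusted p = 0.45), Mmp3 of −0.01 ± 0.06 (SE, adjusted p = 0.96), and Postn, Tnc, Eln and the 4 laminins lay between −0.06 and 0.11.

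No member was called in liver for 569 against WT (background 0.0155%), Box1 against WT (2.1%), KO against WT (3.3%) or KO against 391 (0.325%). At an unadjusted p under 0.05 there were 9 (background 9.94%), 3 (16.9%), 8 (18%) and 9 (11%) of 38 members. For KO against 391, 7 of 38 members lay below without overlap (background 6.82%) and none above (5.73%). They were Col4a1, Col4a2, Col6a1, Lox, Mmp2, Sparc and Thbs2. For KO against WT, 4 lay above (14.1%) and 4 below (6.55%). When both 391 arrays with pancreatic transcripts were left out, a choice made after seeing the data, the 1 remaining 391 array was assumed to vary like the other groups. Then 4 members were called up in 391 against WT (background 4.29% up), namely Ctgf (2.35, adjusted p = 0.015), Dcn (1.31, 0.017), Timp3 (0.98, 0.014) and Fn1 (0.85, 0.044). The class comparison then called 9 (background 18%), with Col4a1 added (0.34, adjusted p = 0.045) and Col6a1 and Col14a1 lost.

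**Figure D5:**
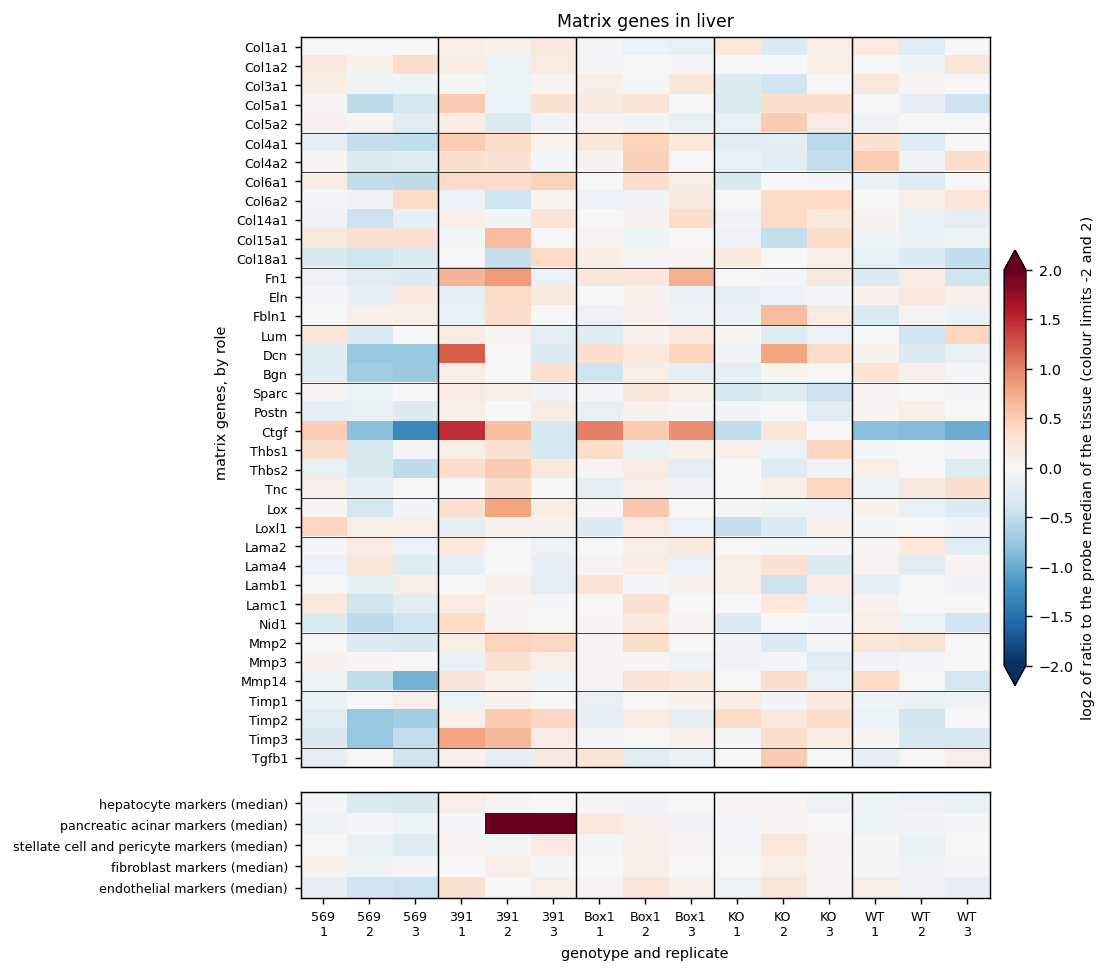
The 38 matrix genes (rows, by role) and the medians of 5 marker lists in the 15 liver arrays (columns, by genotype and replicate), on the same log2 colour scale as the map of fat. Pancreatic acinar markers stand at 3.15 and 2.43 in 391 replicates 2 and 3, and the matrix genes have median log2 ratios of −0.23 and −0.22 in 569 replicates 2 and 3.

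Other genes of the matrix and of its signalling were counted in the same liver class comparison, for lists chosen by function, where 13.9% of all genes rose and 1.36% fell. Of 13 further basement membrane genes 4 (30.8%) rose, Col4a5 by 0.86 ± 0.10 (SE, adjusted p = 0.00014), Hspg2, perlecan, by 0.64 ± 0.08 (SE, adjusted p = 0.00014), Lamb3 by 1.43 ± 0.24 (SE, adjusted p = 0.0014) and Lamb2 by 0.31 ± 0.07 (SE, adjusted p = 0.016). Against WT, Col4a5 was called in 391 (adjusted p = 0.013) and Box1 (0.0016), and Hspg2, Lamb3 and Lamb2 in no genotype. In 569 against WT, Lamb3 had −0.84 ± 0.37 (SE) and Hspg2 −0.50 ± 0.12 (SE), neither called. These low 569 values are part of their class differences. Of 12 TGF-beta signalling genes 4 (33.3%) rose: the receptors Tgfbr3 by 0.85 ± 0.08 (SE, adjusted p = 1.1e-05), Tgfbr2 by 0.76 ± 0.14 (SE, adjusted p = 0.0028) and Tgfbr1 by 0.32 ± 0.06 (SE, adjusted p = 0.0044), and the signal transducer Smad4 by 0.37 ± 0.09 (SE, adjusted p = 0.015). All 12 were positive, with a median of 0.24. For Tgfbr1, 391, Box1 and KO each overlapped with WT (1.08, 0.91 and 0.93), and 569 was low (0.75, 0.66 and 0.73). For Tgfbr2 all 391, Box1 and KO arrays lay above WT, the lowest at 0.88 and the highest WT array at 0.87. The other probes did not separate the classes, running between 0.81 and 1.13 for Tgfbr1 and between 0.84 and 1.41 for Tgfbr2. Among 22 further proteoglycan and matricellular genes 2 (9.09%) rose and 1 fell. Tgfbi, a secreted protein named for its induction by TGF-beta, rose by 0.76 ± 0.10 (SE, adjusted p = 0.00021), Ecm1 rose by 0.59 ± 0.14 (SE, adjusted p = 0.014) and Spon2 fell by 0.57 ± 0.16 (SE, adjusted p = 0.035). None of 12 further fibrillar and associated collagens and none of 13 elastic fibre genes was called. Of 19 collagen folding and processing enzymes, 1 fell, Bmp1, the procollagen C-proteinase, by 0.34 ± 0.08 (SE, adjusted p = 0.013). Of 15 further proteases and inhibitors, Plau and Adamts5 (13.3%) rose, by 0.26 and 0.27, and Mmp8 fell by 0.27. Of 18 matrix receptors Cd44 and Dag1 (11.1%) rose, by 0.44 and 0.46. The shares that rose among proteoglycans, proteases and receptors were near or below that of all genes. In the fat class comparison none of the genes on these 8 lists was called.

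Markers of liver cell types were counted in the same comparison. Of 16 endothelial markers 7 (43.8%) rose, among them Robo4 (0.80 ± 0.10 (SE), adjusted p = 0.00014), Pecam1 (0.49 ± 0.08 (SE), adjusted p = 0.001) and the sinusoidal receptor Stab2 (0.37 ± 0.07 (SE), adjusted p = 0.0047), and the median was 0.33. Others were flat and not called, among them Cdh5 (0.02), Kdr (0.04), Tie1 (−0.03) and Clec14a (0.10). Against WT, Robo4 was called in 391 and Box1, Pecam1 in 391 and Stab2 in no genotype. Emcn and Egfl7, which also rose, had −0.34 and −0.32 in 569 against WT, neither called there. Of 13 stellate cell and pericyte markers 2 (15.4%) rose (median 0.17), Reln by 0.55 ± 0.12 (SE, adjusted p = 0.007) and Ecm1, which the list of matricellular genes also holds. Of 13 fibroblast markers 2 (15.4%) rose (median 0.06), Pdgfra by 0.69 ± 0.11 (SE, adjusted p = 0.00081) and Thy1 by 0.48 ± 0.12 (SE, adjusted p = 0.019). The second Pdgfra probe ran between 0.9 and 1.06 in liver, and the other Reln probes between 0.88 and 1.28. The shares of stellate and fibroblast markers were near the 13.9% of all genes. Of 10 hepatocyte markers 3 (30%) rose and 1 (10%) fell (median 0.16), Alb rising by 0.59 ± 0.10 (SE, adjusted p = 0.0015). Endothelial markers had array medians from −0.10 to 0.30 in 391, Box1 and KO, and from −0.43 to 0.12 in 569 and WT. The ratios hold no level, so no marker could be called absent, and the part of cell composition in the matrix values was not tested.

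The difference between fat and liver was tested directly, without pairing by mouse, since the labels do not link fat and liver arrays. No member was called for 569 (background 0%), 391 (0.366%), Box1 (0.278%), KO (0.541%) or the class comparison (1.44%), and at an unadjusted p under 0.05 there were 1 (background 8.82%), 1 (8.27%), 1 (6.39%), 2 (9.7%) and 2 (12.8%) of 38. Thbs2 had the smallest p, with the KO difference from WT 2.69 ± 0.72 (SE) higher in fat than in liver (adjusted p = 0.15) and the class difference 1.68 ± 0.47 (SE) higher (adjusted p = 0.1). With array weights both were called (adjusted p = 0.0011 and 0.016), as they were under quantile normalization (0.0035 and 0.02). Without fat 569 replicate 3, 10 of 38 members were called for the class comparison (background 3.62%). Thbs2 was then higher in fat by 1.15 (adjusted p = 0.011), and Col1a2, Col3a1, Col6a1, Mmp2, Mmp3, Mmp14, Sparc, Timp1 and Timp2 had negative differences, fat minus liver, from −0.69 (Mmp2) to −1.30 (Col3a1).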

How the data were processed

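Gene expression was measured on Illumina bead arrays in subcutaneous fat and liver of 5 genotypes with 3 arrays each. Per the labels' protocols, total RNA from frozen tissue was labelled with biotin and hybridised by a microarray facility. The authors deposited 1 table with a ratio for each of 46643 probes on each of 30 arrays. From the values, the authors divided each probe by its median over the 15 arrays of its tissue, since that median was 1 for all 46643 probes in each tissue, and the array medians lay between 0.98 and 1.01. Ratios ran from 0.01 to 168.6, and no probe of a matrix gene was at 0.01. No source used here gives the background treatment, software or normalization, and signal over background is unknown.

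Probes took their gene names from the platform annotation. It names 1 gene for 32794 probes and several for 55, while 13794 carry no name, which left 19406 genes. The 38 measured members had 80 probes, and 21 members had several. The log2 of each ratio went into limma 3.58.1 under R 4.3.3 (lmFit, contrasts.fit and eBayes). Each tissue had 1 model of its 5 genotypes, and a model of both tissues gave the differences between them. Tests were two-sided, with Benjamini-Hochberg adjustment over all probes and a threshold of 0.05, and no filter or offset was applied. Each mutant was compared with WT, KO with 391, and 391, Box1 and KO with 569 and WT. On simulated data with log2 changes of 1 in 100 of 46643 probes, the fit of KO against WT recovered 71% of changed probes in fat and 90% in liver. These shares are not those of the matrix genes, whose SD in fat had a median of 0.66. A lack of calls in fat therefore does not exclude changes of that size. Groups of 3 arrays limit the precision.

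The members, the lists and the comparison of classes were chosen with earlier results of these data known. Members called in a tissue were named with every array. In fat, the 8 with the smallest F-test p, and in both tissues the first of each role and Col1a1, Col3a1, Col4a1, Fn1, Sparc, Ctgf and Timp1, were named too, as were Ghr, Igf1 and up to 3 called genes of each companion list by F-test p. Further members, and called genes of those lists beyond these, were named after their values were seen. Alternatives were quantile normalization, centring on array medians, array weights, probes under 0.1 left out, an offset of 0.1, the mean over a gene's probes, the 2 genotypes alone, slide as a random block and each array left out. Leaving out both liver 391 arrays with pancreatic transcripts was added after seeing the data. Promoter windows came from RefSeq (GRCm38.p6), where 24 members had one.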

Additional observations from a re-analysis of the deposited data

How the results depend on the processing

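None of the 11 called values changed sign under any alternative, whereas 302 of the 635 uncalled differences did so at least once. Centring arrays on their median, an offset of 0.1 and leaving out probes under 0.1 moved none of the 19 counts of members called by over 1.5 times. Quantile normalization gave 3 members for the liver class comparison (10 in the report), 1 for liver Box1, liver KO and fat KO against WT and for liver KO against 391, and 1 for the 391, KO and class differences between tissues. Array weights gave 1 for fat KO and liver Box1 against WT, 1 for the 391, Box1 and KO differences between tissues and 2 for the class difference. Fits of 2 genotypes alone gave 2 for fat KO against WT, 1 for fat KO against 391, 0 for liver 391 against WT, and 1 each for liver Box1 and KO against WT. The mean over a gene's probes gave 0 for liver 391 and 1 for liver KO against WT. The random slide block gave 9 in the fat class comparison (consensus correlation −0.124), where each slide held 1 class only and the adjusted p are likely too small. Leaving out the pair of 391 livers with pancreatic transcripts gave 4 for 391 against WT. Leaving out 1 array at a time gave 0 to 2 members for any genotype in fat, 0 to 3 for the fat class comparison, 0 to 3 for liver 391 against WT, 0 to 2 for liver KO against 391, 2 to 8 for any genotype in liver, 3 to 12 for the liver class comparison, 0 to 1 for the 569 difference between tissues and 0 to 10 for the class difference between tissues. The highest fat counts came without 569 replicate 3. The lowest count for any genotype in liver came without 569 replicate 2, and it was 3 without 569 replicate 3, WT replicate 2 or any of the KO arrays. The cause of these shifts was not tested. Under quantile normalization the share of rises among all genes called in the liver class comparison was 81.2%, against 91.1% as reported. No paired analysis was possible because the labels give no replicate numbers that pair arrays across genotypes. Nor do they say whether fat and liver arrays came from the same mice, so the tests between tissues were fitted without pairing.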
